A study of Rattus norvegicus with 9 samples.

Results

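Histone-modifying enzymes, DNA-methylation enzymes, chromatin remodelers and the reader and adaptor proteins that work with them were examined in rat heart. Members were taken by gene symbol: histone deacetylases (Hdac), sirtuins (Sirt), lysine demethylases (Kdm), lysine acetyltransferases (Kat), methyltransferases (Kmt2, Setd, Ehmt, Ezh), DNA methyltransferases and TET enzymes, SWI/SNF (Smarc) and CHD remodelers, bromodomain, ARID, PHF, PRDM and ING proteins, and the nuclear receptor coactivators and corepressors. Of 5760 genes listed in either of the 2 deposited tables, 60 were members. The table for Cal and Model listed 42 of them among 4288 genes, the table for Cal and sham listed 26 among 2458 genes, and 8 members stood in both. All 60 were annotated as protein coding.

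The study asked how calycosin, an isoflavone given by mouth, alters gene expression in the failing heart. RNA was taken from hearts of male Sprague Dawley rats in 3 groups of 3 libraries each: sham-operated rats (labelled Control, with sample columns headed Con), rats with a ligated left anterior descending coronary artery (Model), and rats with the same ligation given calycosin at 80 mg/kg per day for 28 days (Cal). Sham and Model rats received distilled water. The libraries were poly-A-selected bulk RNA, so that fewer cells of a type and less RNA per cell cannot be told apart in any value given here. Libraries held 2860826 to 3998471 reads on the genes listed for Cal and Model, and 3270460 to 4659882 on those listed for Cal and sham.

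The headings of the tables contradict each other, and this touches every direction below. For Cal and Model, the group mean deposited under the heading Cal was that of the samples headed Model in 4288 of 4288 genes, and the mean under the heading Model was that of the samples headed Cal. In the other table the mean under the heading Model was that of the samples headed Cal in 2458 of 2458 genes. The 3 libraries headed Cal held identical reads in both tables for 986 of 986 shared genes. Libraries are named here by their sample columns. If the mean columns were right instead, Cal and Model would change places in every statement, and the second comparison would be Model against sham, which is also how the title of that table names it.

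DNA in the nucleus is wrapped around histones, and enzymes that add or remove acetyl and methyl groups on histone tails, or methyl groups on cytosine, set how open a gene is to transcription. Acetyltransferases and coactivators such as Ncoa1 mark active genes, deacetylases and corepressors such as Bcor reverse this, and ATP-driven remodelers of the SWI/SNF, CHD and ISWI families slide or evict nucleosomes. In heart muscle the class IIa deacetylases Hdac5, Hdac7 and Hdac9 are known for binding MEF2 factors and restraining hypertrophic genes, and bromodomain proteins such as Brd2 for reading acetylated histones at active genes.

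Adjacent genes of the Phf11 family, their neighbour Setdb2, and Tet1 were among the members with the largest differences, so promoters of Phf11b, Setdb2 and Tet1 are shown as the sequences upstream of these genes in rat. They are the 250 bases before the annotated start in RefSeq (build GRCr8), written 5′ to 3′ on the strand of the gene, matched by symbol, with capitals marking the motif matches named below.
Phf11b, chr15:37495806-37496055, minus strand: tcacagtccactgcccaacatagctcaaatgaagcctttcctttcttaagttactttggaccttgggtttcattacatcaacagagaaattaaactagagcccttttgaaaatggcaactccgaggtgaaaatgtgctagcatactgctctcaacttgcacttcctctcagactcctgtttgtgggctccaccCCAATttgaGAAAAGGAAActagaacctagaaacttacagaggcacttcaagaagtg
Setdb2, chr15:37782564-37782813, minus strand: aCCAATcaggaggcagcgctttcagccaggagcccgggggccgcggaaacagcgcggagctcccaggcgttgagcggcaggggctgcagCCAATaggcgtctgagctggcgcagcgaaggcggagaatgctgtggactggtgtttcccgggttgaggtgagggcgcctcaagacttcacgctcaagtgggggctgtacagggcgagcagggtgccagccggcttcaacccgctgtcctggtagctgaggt
Tet1, chr20:25766556-25766805, plus strand: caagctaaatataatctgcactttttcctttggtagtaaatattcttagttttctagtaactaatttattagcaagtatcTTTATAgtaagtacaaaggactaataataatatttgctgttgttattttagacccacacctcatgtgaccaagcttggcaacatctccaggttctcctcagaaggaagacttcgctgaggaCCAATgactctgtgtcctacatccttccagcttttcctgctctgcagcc
Capitals in Phf11b mark a CCAAT box from -57 to -53 and a match to the interferon-stimulated response element (ISRE), read on the other strand, from -48 to -39. In Setdb2 they mark CCAAT boxes from -249 to -245 and from -161 to -157, and in Tet1 a TATAAA match on the other strand from -170 to -165 and a CCAAT box from -49 to -45. Positions count back from the base before the start.

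A same-symbol promoter was found for 45 of the 60 members, and 10 motifs were searched on both strands of the 250 bases. CCAAT stood in 16 of the 45 (35.6%, against 34.3% of all 27457 promoters), TATAAA in 4 (8.89% against 13.1%), and the AP-1 pattern TGANTCA in 3 (6.67% against 6.36%). The ISRE stood in Phf11b alone (2.22% against 3.29%), the cAMP-response element TGACGTCA in Brd2 alone (2.22% against 1.70%), and the E-box CACGTG in Dnmt3a and Hdac5 (4.44% against 5.79%). The STAT pattern TTCCNGGAA, the NF-kB site, the E2F site TTTGGCGC and the NRF1 site were in none of the 45 windows and in 1.04%, 0.0765%, 0.426% and 0.849% of all promoters. Overlaps between patterns were not removed.

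Between the libraries headed Cal and Model, 16 of 42 members (38.1%) differed by more than 1 log2 unit, against 60.1% of all 4288 listed genes. This gap depended on scaling, and with median-ratio factors computed on the listed genes it was 59.5% against 62.8%. Higher in Cal were 7 members, Tet1, Prdm16, Hdac9, Dnmt3a, Kdm6b, Chd3 and Tet3 (16.7%, against 28.4% of all listed genes). Lower in Cal were 9 members, Dnmt3c, Phf11b, Setdb2, Phf11a, Phf11d, Phf11c, Ncoa7, Chd7 and Arid5b (21.4%, against 31.6%). The median log2 fold change (Cal minus Model) was 0.02 over the members and -0.52 over all listed genes, and the median size of the change was 0.82 against 1.18. All fold changes are on the log2(normalized count + 1) scale, with adjusted p-values from limma under Benjamini-Hochberg adjustment, and a call needed both an adjusted p below 0.05 and a difference of more than 1 log2 unit.

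Each listed gene had already passed the authors' own test, with no deposited adjusted p above 0.04988, so passing again is no independent evidence. The prior variance and the adjustment rested on these selected genes alone, in both comparisons. The adjusted p-values given here therefore do not control a false discovery rate over all expressed genes. All 42 members passed the adjusted p alone here, as did 99.6% of all listed genes. By that rule 21 members were higher and 21 lower in Cal, beside 46.0% and 53.7% of all listed genes. In 41 of 42 members (97.6%) the groups did not overlap, as in 98.2% of all listed genes. With 3 libraries against 3 an exact two-sided permutation test cannot go below 0.1. The libraries of a group come from separate rats chosen by the authors, and p-values measure the spread between these samples only.

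Scaling bears on the small differences. Median-ratio factors computed on the listed genes moved the median of all genes from -0.52 to -0.23, quantile normalization to -0.10, and the called members then split 16 higher to 9 lower and 11 to 9, in place of 7 to 9. Called higher were thus 38.1% of members against 38.4% of all listed genes under median-ratio scaling, and 26.2% against 32.5% under quantile normalization. Called lower were 21.4% of members under both, against 24.4% and 27.4% of all listed genes. The 21 members higher in Cal and the 9 called lower passed the adjusted p under both scalings. The other 12 lower members lost it under one or both, among them Brd2, Chd2, Chd6, Chd8, Kat6a, Kdm4a, Ncoa6, Phf20, Prdm4, Sirt7 and Tet2. Median-ratio factors moved log2 fold changes upward by nearly the same amount (Prdm16 from 1.77 to 2.06, Kdm4a from -0.49 to -0.19). Rises were thus bound to keep the adjusted p, and small falls were prone to lose it, whatever the gene. The share of all listed genes that lost it was not computed.

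**Figure D1:**
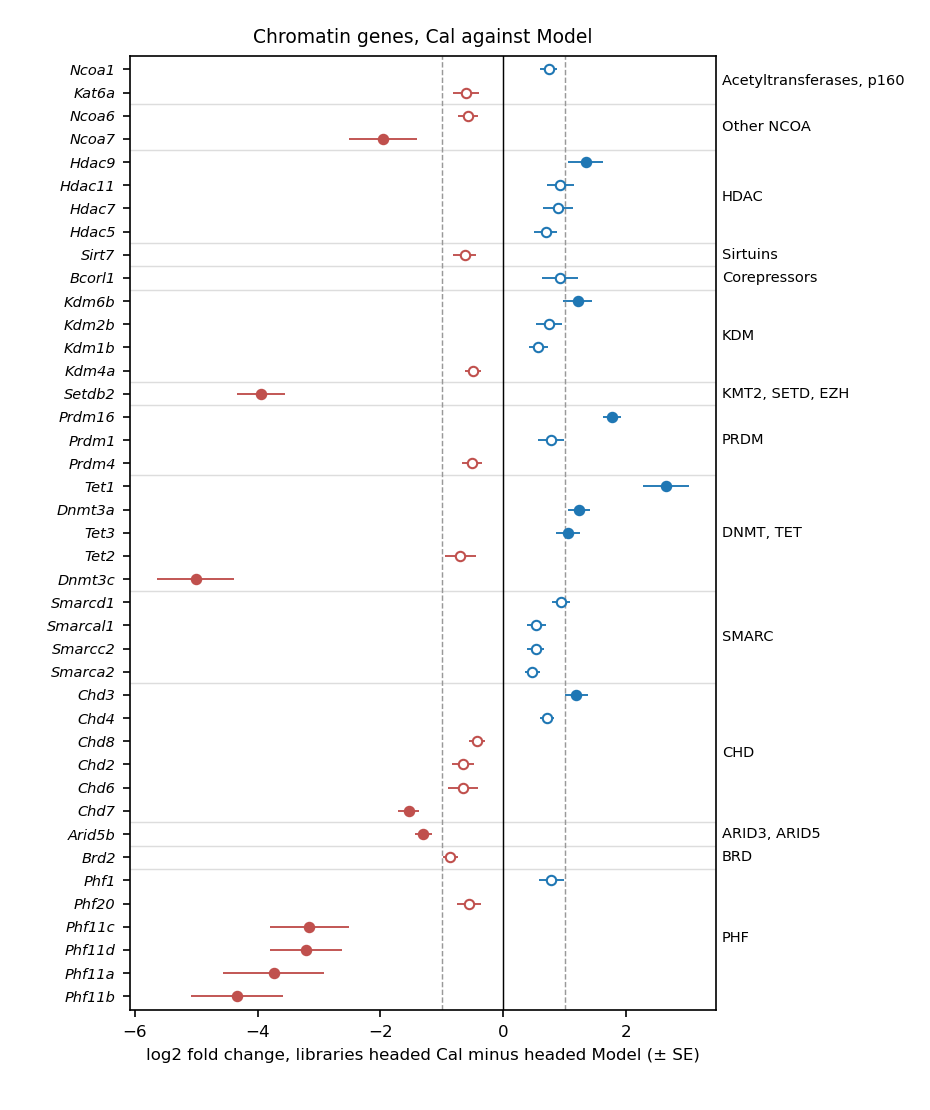
Log2 fold change (Cal minus Model, horizontal axis) of 41 members listed for that comparison, grouped by role, with bars of 1 SE. Filled points passed the adjusted p and lay beyond the dashed lines at -1 and 1: 7 were higher in Cal, from Tet3 at 1.05 to Tet1 at 2.65, and 9 lower, from Arid5b at -1.30 to Dnmt3c at -5.01.

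The plant homeodomain proteins of the Phf11 family and Setdb2 were far lower in Cal than in Model. Phf11a, Phf11b, Phf11d, Phf11c and Setdb2 follow each other in that order on the minus strand of mouse chromosome 14, from 59276913 to 59440884 in the coordinates of the deposited table, whose build is not named in it. The 5 genes span 163972 bases with 0 other listed genes between them. Phf11 proteins carry an extended PHD finger, a zinc-binding fold found in many readers of histone tails, and Setdb2 carries the bifurcated SET domain of a histone methyltransferase family.

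Phf11b had 121, 21.6 and 194 normalized counts in Cal 1, 2 and 3 and 1207, 2737 and 1337 in Model 1, 2 and 3 (mean 112 ± 86.5 against 1760 ± 848, SD, n = 3; log2 fold change -4.34, SE 0.75, adjusted p = 0.00183). Phf11d, the most abundant of the family by count, had 622, 222 and 1121 in Cal and 4138, 8677 and 3439 in Model (log2 fold change -3.21, SE 0.59, adjusted p = 0.00225). In both genes every Model library lay above every Cal library, with Model 2 the highest and Cal 2 the lowest. Phf11a had 24.9, 3.75 and 42.7 in Cal and 144, 469.5 and 188 in Model (log2 fold change -3.74, SE 0.82, adjusted p = 0.00436). Phf11c had 25.8, 11.3 and 58.9 in Cal and 204, 480.5 and 141 in Model (log2 fold change -3.16, SE 0.64, adjusted p = 0.00322). These genes also had their lowest value in Cal 2 and their highest in Model 2. Their groups did not overlap, as in 98.2% of all listed genes.

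The Phf11 genes are near copies of each other, and how reads were shared among them by the authors' counting is uncertain. Their sum, a value chosen after the separate values were seen, was 793, 258 and 1417 in Cal and 5693, 12363 and 5105 in Model, a difference of -3.42 between the groups' mean log2 values. Without Cal 2 the log2 fold changes were -3.41 for Phf11b, -2.80 for Phf11a, -2.57 for Phf11d and -2.59 for Phf11c. Without Cal 3 they were -4.97 for Phf11b, -4.40 for Phf11a and -3.73 for Phf11c, and each of these remained called. With a pseudocount of 10 Phf11a was at -3.06.

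Setdb2 had 62.7, 65.7 and 92.2 normalized counts in Cal and 712, 2122 and 947 in Model (mean 73.6 ± 16.2 against 1260 ± 756; log2 fold change -3.94, SE 0.39, adjusted p = 2.77e-04), a difference of 15.4-fold. The Cal libraries lay close together, and Model 2 stood above the other Model libraries. Per kilobase of gene length, Phf11b reached 1487 normalized counts in Model, the highest level of any member in either group, and Phf11d 1205, with Setdb2 at 311. In Cal these levels were 94.7, 146 and 18.2. The other PHD-finger members moved less: Phf1, an accessory subunit of the Polycomb complex PRC2, had 303, 275 and 272 in Cal and 150.1, 138 and 215 in Model (log2 fold change 0.78, adjusted p = 0.00820), and Phf20 was lower in Cal by 0.56 on the log2 scale.

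**Figure D2:**
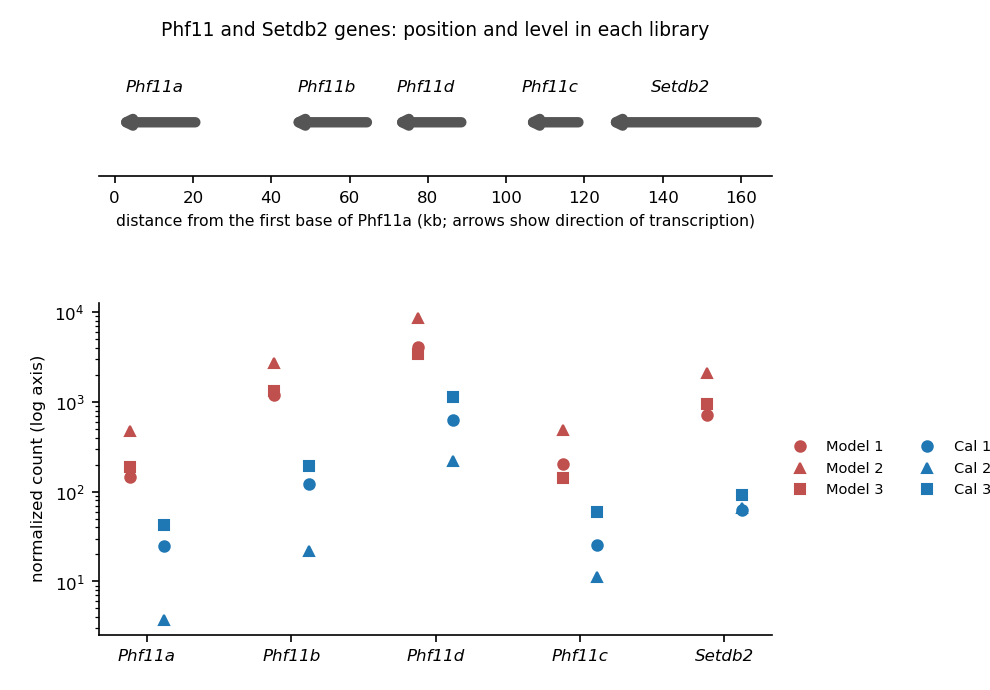
Upper panel, position of the 5 genes on the minus strand in kilobases from the first base of Phf11a; lower panel, normalized count of each gene in each Cal and Model library on a log axis. The Model libraries lay above the Cal libraries in all 5 genes, where 98.2% of all listed genes had groups apart. Model 2 was the highest, reaching 8677 in Phf11d. It was the highest Model library in 1332 of all 2317 listed genes lower in Cal.

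Enzymes of DNA methylation and demethylation moved in both directions. TET enzymes oxidise methylcytosine as the first step of its removal, and Tet1 had 152, 86.4 and 114 normalized counts in Cal and 10.8, 28 and 17.3 in Model (mean 117 ± 33.1 against 18.7 ± 8.72; log2 fold change 2.65, SE 0.38, adjusted p = 9.57e-04), the largest rise among the members in this comparison. Tet3 had 486, 399.8 and 506 in Cal and 281, 198 and 199 in Model (log2 fold change 1.05, SE 0.19, adjusted p = 0.00228). Every Cal library was above every Model library in both, and the groups were apart in 98.2% of all listed genes. Tet2, the remaining family member, lay the other way, with 245, 294 and 295 in Cal and 373, 662 and 368 in Model (log2 fold change -0.70, SE 0.25, adjusted p = 0.0256), and it lost the adjusted p under median-ratio scaling and without Cal 1.

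Among the methyltransferases, Dnmt3a, which sets methylation at new sites in somatic cells, had 1244, 887 and 979.6 in Cal and 469, 473 and 379 in Model (mean 1037 ± 185 against 440.1 ± 53.4; log2 fold change 1.23, SE 0.18, adjusted p = 8.94e-04). Dnmt3c, a rodent copy of Dnmt3b known from silencing retrotransposons in the male germ line, had 1.84, 3.75 and 7.69 in Cal and 117, 378 and 87.2 in Model (log2 fold change -5.01, SE 0.63, adjusted p = 5.69e-04). The value of Cal 1 stood for 2 reads. Without Model 2 the log2 fold change was -4.38, and with a pseudocount of 10 it was -3.57. Reads of Dnmt3c may be shared with its near copy Dnmt3b, whose values were not analysed here.

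All 4 listed zinc-dependent histone deacetylases were higher in Cal than in Model, 1 of them past the fold limit, beside 46.0% higher and 28.4% called higher among all listed genes. Hdac9 had 431, 381 and 399 normalized counts in Cal and 151, 243 and 109 in Model (mean 404 ± 25.2 against 168 ± 68.2; log2 fold change 1.34, SE 0.28, adjusted p = 0.00367). Hdac5 had 1523, 1346 and 1443 in Cal and 771, 779 and 1172 in Model (log2 fold change 0.69, adjusted p = 0.00947). Both are class IIa enzymes with non-overlapping groups, as in 98.2% of all listed genes. Hdac7, the class IIa member known for its part in endothelial cells, had 569, 327 and 401 in Cal and 233, 185 and 267 in Model (log2 fold change 0.89, adjusted p = 0.00942). Hdac11, the only class IV enzyme, had 236, 240.3 and 243 in Cal and 103, 112 and 169.6 in Model (log2 fold change 0.93, adjusted p = 0.00568). Its Cal values were almost equal, and the Model values spread over a wider range. The nucleolar sirtuin Sirt7 had 95.9, 77.0 and 99.9 in Cal and 139, 138 and 143 in Model (log2 fold change -0.63, adjusted p = 0.0132, lost without Cal 2). The corepressor Bcorl1, a relative of the Polycomb partner Bcor, had 171, 125 and 154 in Cal and 94.0, 51.2 and 97.8 in Model (log2 fold change 0.92, adjusted p = 0.0161, lost without Cal 1).

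Of 4 listed lysine demethylases, 3 were higher in Cal, beside 46.0% of all listed genes. Kdm6b, which removes the repressive methyl mark laid by Polycomb and is induced in inflammation, had 2745, 2259 and 2947 normalized counts in Cal and 779.7, 1427 and 1314 in Model (mean 2651 ± 354 against 1174 ± 346; log2 fold change 1.21, SE 0.24, adjusted p = 0.00308). The groups did not overlap, but without Model 1 the log2 fold change was 0.94 and the fold limit was missed. Kdm2b, which brings a Polycomb complex to CpG islands, and Kdm1b, a flavin-dependent demethylase, were higher by 0.75 and 0.57 on the log2 scale. Kdm1b overlaps the listed gene Dek on the opposite strand, and whether the counting used strand is not stated, so its value is uncertain. Kdm4a had 599.6, 572 and 623 in Cal and 773, 849 and 895 in Model (log2 fold change -0.49, adjusted p = 0.00819).

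PRDM factors carry a domain related to the SET methyltransferase fold, and Prdm16, known from brown fat and heart development, had 382, 382 and 395 in Cal and 119, 107 and 113 in Model (mean 386 ± 7.77 against 113 ± 5.74; log2 fold change 1.77, SE 0.15, adjusted p = 1.78e-04). This was the smallest adjusted p among the 42 members, and the libraries of each group lay close together. Prdm4 had 276, 290.0 and 304 in Cal and 413, 477 and 355 in Model (log2 fold change -0.51, adjusted p = 0.0161). Prdm1, the repressor Blimp-1 of plasma cell maturation, was higher in Cal by 0.77.

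The 6 listed CHD remodelers split, with 2 higher and 4 lower in Cal (46.0% and 53.7% of all listed genes) and 1 called each way. Chd3, an ATPase of the NuRD deacetylase complex, had 493, 467 and 435 normalized counts in Cal and 184, 177 and 259 in Model (mean 465 ± 29.0 against 206 ± 45.5; log2 fold change 1.19, SE 0.19, adjusted p = 0.00124). Chd4, the other main NuRD ATPase, had 3412, 3447 and 3804 in Cal and 2162, 2145 and 2197 in Model (log2 fold change 0.71, adjusted p = 0.00168). Both NuRD ATPases were thus higher in every Cal library, but the groups were apart in 98.2% of all listed genes. Chd7, whose loss causes CHARGE syndrome with heart defects, had 317, 412 and 368 in Cal and 1070, 1249 and 899 in Model (mean 366 ± 47.4 against 1073 ± 175; log2 fold change -1.54, SE 0.17, adjusted p = 3.82e-04). Chd8, which restrains beta-catenin target genes, had 439, 385 and 389 in Cal and 554, 559.8 and 522 in Model (log2 fold change -0.43, adjusted p = 0.0141). Chd2 and Chd6 were each lower by 0.66, and Chd6 was the 1 member of 42 whose groups overlapped (exact permutation p = 0.200). Of these 4 lower members, Chd7 alone passed under both other scalings.

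All 4 listed SWI/SNF-related members were higher in Cal, none past the fold limit, beside the same 46.0% and 28.4% of all listed genes. Smarcd1, a BAF subunit that contacts transcription factors, had 402, 336 and 376 in Cal and 189, 196 and 191 in Model (log2 fold change 0.94, SE 0.15, adjusted p = 0.00118). Smarca2, the ATPase BRM, had 957, 872 and 961 in Cal and 699.8, 666 and 641 in Model (log2 fold change 0.47, adjusted p = 0.00792). Neither overlapped between the groups, like 98.2% of all listed genes. The core subunit Smarcc2 and the annealing helicase Smarcal1, which is no subunit of SWI/SNF, were higher by 0.53 and 0.54.

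The bromodomain reader Brd2 was lower in Cal. It had 1724, 1627 and 1699 in Cal and 2757, 3215 and 3193 in Model (log2 fold change -0.86, adjusted p = 9.88e-04). The groups did not overlap, but Brd2 lost the adjusted p under quantile normalization.

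Among coactivators and ARID proteins, Arid5b, a DNA-binding partner of the demethylase Phf2, had 282, 337 and 289 in Cal and 771, 790.2 and 676 in Model (mean 303 ± 29.9 against 746 ± 61.3; log2 fold change -1.30, SE 0.14, adjusted p = 3.71e-04). Ncoa7, a TLDc-domain protein linked to oxidative stress, had 173, 144 and 391 in Cal and 491, 1889 and 623 in Model (log2 fold change -1.96, SE 0.56, adjusted p = 0.0111). Cal 3 and Model 2 stood far above their groups in Ncoa7, and without Model 2 its log2 fold change was -1.37. Ncoa6, a subunit of methyltransferase complexes, had 461, 440.2 and 455 in Cal and 811, 654 and 579 in Model (log2 fold change -0.58, adjusted p = 0.00981). Ncoa1, a p160 coactivator of steroid receptors, had 612, 599 and 728 in Cal and 397, 372 and 390.1 in Model (log2 fold change 0.74, adjusted p = 0.00244). The acetyltransferase Kat6a (MOZ) had 803, 741 and 871 in Cal and 1300, 1578 and 905 in Model (log2 fold change -0.61, adjusted p = 0.0224), and lost the adjusted p in 4 of the 6 fits that left out a library.

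**Figure D3:**
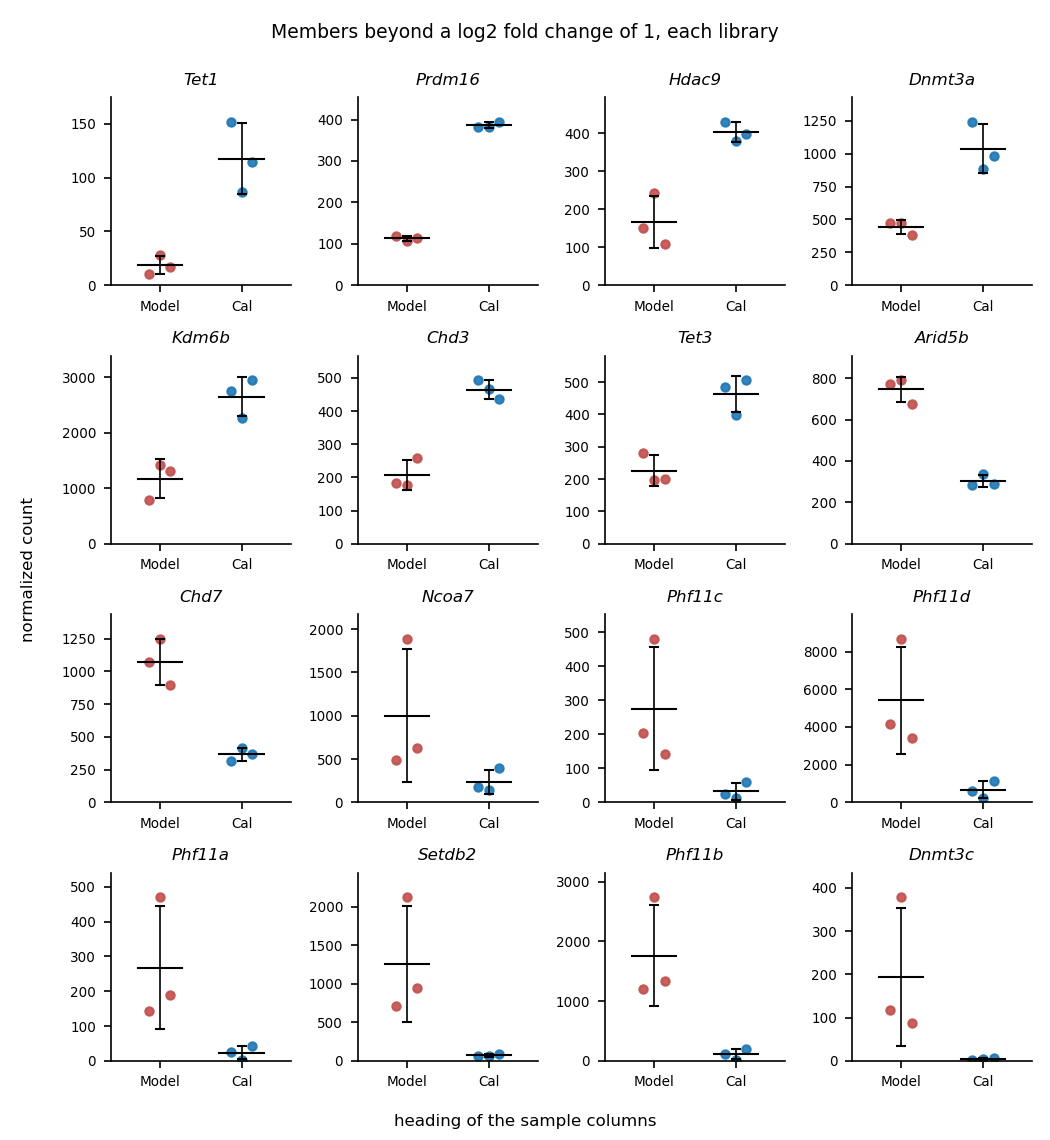
Normalized count (vertical axis, linear, own scale for each gene) in each Cal and Model library for the 16 called members, with the mean and SD of each group. The groups were apart in all 16, as in 98.2% of all genes listed for this comparison. Model 2 stood above the other Model libraries in the Phf11 genes, Setdb2, Dnmt3c and Ncoa7.

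Among the members lower in Cal, the same library was often the highest of its group. Over the 21 members lower in Cal, Model 2 was the highest Model library in 16 and Cal 3 the highest Cal library in 15. Over all 2317 listed genes lower in Cal these were 1332 and 999. Leaving out each library in turn left 9 members called lower, and between 6 and 10 called higher. Over all genes listed for Cal and Model, 1223 to 1429 were then called lower and 1121 to 1275 higher. Tet3 fell under the fold limit without Model 2, Model 3 or Cal 3, down to a log2 fold change of 0.96.

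Markers of other cell types moved between the same libraries. All 8 neutrophil markers were listed and lower in Cal, summing to 213 to 568 normalized counts per Cal library and 25867 to 29189 per Model library. Most of this was Lcn2, and Cxcr2, the neutrophil chemokine receptor, had 2.07 ± 1.26 in Cal and 39.4 ± 12.8 in Model. All 8 listed of 9 endothelial markers were higher in Cal (19822 to 21133 against 8296 to 10195). Of 10 macrophage and monocyte markers 7 were listed, 6 higher in Cal and 1, Ly6c2, lower, and their sum was 4852 to 5808 against 1865 to 2792. In Cal 1, Ly6c2 was at 0. Fibroblast markers had 3 of 7 listed (2 higher, 1 lower, 12086 to 15382 against 13412 to 19335), and markers of dividing cells 2 of 10 (Mcm2 and Mcm5, both higher, 171 to 224 against 64.6 to 134). Of 10 cardiomyocyte markers Nppa alone was listed, lower in Cal (622 to 896 against 988 to 2363), and of 9 lymphocyte markers none. The part of these cell types in the differences of the members was not tested.

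Against the sham libraries, 3 of 26 members (11.5%) differed beyond the fold limit, against 29.0% of all 2458 listed genes. Arid5a and Kdm6b were higher in Cal (7.69% of members, against 18.0% of all listed genes), and Arid3a was lower (3.85% against 10.9%). The median log2 fold change (Cal minus sham) was 0.00 over the members and 0.37 over all listed genes, with median sizes of 0.49 and 0.64. At the adjusted p alone, which listing had already required (largest deposited value 0.04996), all 26 members passed, as did 99.8% of all listed genes, and 13 members were higher and 13 lower, beside 60.6% and 39.2%. The groups were apart in 25 of 26 members (96.2%, against 97.4%). Median-ratio scaling moved the median of all genes from 0.37 to 0.09 and quantile normalization to -0.04. All 13 lower members kept the adjusted p under both, and of the 13 higher members 4 did, Arid5a, Kdm6b, Bcor and Smarcd3. A downward shift of this kind favours falls over small rises in any gene. The share of all listed genes that kept the adjusted p was not computed. Called members were then 19.2% under both, against 32.1% of all listed genes with median-ratio factors and 29.9% with quantile normalization.

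Arid5a, an RNA-binding ARID protein known for stabilising Il6 mRNA, had 1219, 1330 and 1511 normalized counts in Cal and 228, 212 and 142 in the sham libraries (mean 1354 ± 147 against 194 ± 46.0, SD, n = 3; log2 fold change 2.82, SE 0.18, adjusted p = 9.07e-06), 7.06-fold higher. Kdm6b had 3070, 2533 and 3286 in Cal and 542, 526 and 585 in sham (mean 2963 ± 388 against 551 ± 30.3; log2 fold change 2.42, SE 0.11, adjusted p = 1.37e-06). In both genes the lowest Cal library was far above the highest sham library. Arid3a, a DNA-binding factor first described in B cells, was the least abundant of the 26, with 11.3, 22.1 and 15.2 in Cal and 35.4, 61.9 and 32.4 in sham (log2 fold change -1.35, SE 0.36, adjusted p = 0.00780).

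The remaining 23 members differed by less than 1 log2 unit. Arid5b had 316, 378 and 322 in Cal and 549.8, 705 and 559 in sham (log2 fold change -0.83, adjusted p = 0.00122). Hdac7 had 637, 366 and 447 in Cal and 742, 878 and 846 in sham (log2 fold change -0.80, adjusted p = 0.00525), and was called without Cal 1, at -1.02. Bcor, the corepressor that recruits a variant Polycomb complex, had 986, 991 and 1111 in Cal and 649, 596 and 542 in sham (log2 fold change 0.79, adjusted p = 4.26e-04). The groups were apart in each of these, as in 97.4% of all listed genes.

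Among deacetylases Hdac11 had 264, 269 and 271 in Cal and 228, 173 and 182 in sham (log2 fold change 0.47, adjusted p = 0.0116), while the class I enzyme Hdac2 was lower by 0.32. The mitochondrial sirtuin Sirt3 had 478, 469 and 548 in Cal and 394, 304 and 321 in sham (log2 fold change 0.56, adjusted p = 0.00538). Both rises had groups apart, as in 97.4% of all listed genes. Hdac11 and Sirt3 were among the higher members that lost the adjusted p under the other scalings.

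Of the BAF subunits, Smarcd3, which is known from heart development, had 524, 486 and 551 in Cal and 362, 326 and 354 in sham (log2 fold change 0.58, adjusted p = 0.00194). Smarcd2, which stands in the same position of the complex and is known from granulocyte maturation, had 263, 306 and 272 in Cal and 445, 473 and 437 in sham (log2 fold change -0.69, adjusted p = 0.00121). These alternative subunits lay in opposite directions, both with groups apart, as in 97.4% of all listed genes. Smarca5, the ISWI ATPase, was higher by 0.32 and turned to -0.09 under quantile normalization.

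Chd4 had 3816, 3864 and 4241 in Cal and 2692, 2519 and 2608 in sham (log2 fold change 0.61, adjusted p = 2.94e-04), and Chd1, a remodeler of transcribed genes, was higher by 0.57. Chd8 had 491, 431 and 434 in Cal and 636, 599 and 593 in sham (log2 fold change -0.43, adjusted p = 0.00508). Chd4 and Chd1 lost the adjusted p under quantile normalization and Chd8 did not. Prdm16 had 427, 428 and 441 in Cal and 299, 318 and 273 in sham (log2 fold change 0.54, adjusted p = 0.00281, lost under median-ratio scaling), and Prdm11 was higher by 0.48.

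Kmt2e and Ezh1, the latter a catalytic subunit of PRC2, were lower in Cal. Kmt2e had 791, 668 and 707 in Cal and 1028, 1077 and 956 in sham (log2 fold change -0.50, adjusted p = 0.00283), and Ezh1 had 647, 584 and 568 against 708, 773 and 822 (log2 fold change -0.36, adjusted p = 0.0104). Brd3, a further bromodomain reader, had 539, 451 and 409 in Cal and 635, 588 and 632 in sham (log2 fold change -0.41, adjusted p = 0.0111). All 3 had groups apart, as had 97.4% of all listed genes. The PHD-finger genes Phf3 and Phf14 were lower by 0.31 and 0.32. Among coactivators, Ncoa6 had 516, 494 and 508 in Cal and 736, 659 and 651 in sham (log2 fold change -0.43, adjusted p = 0.00429) and Ncoa5 476, 518 and 532 against 387, 359 and 355 (log2 fold change 0.47, adjusted p = 0.00401). The p160 coactivator Ncoa3 had 809.8, 553 and 681 in Cal and 805, 961 and 922 in sham (log2 fold change -0.41, adjusted p = 0.0242). It was the 1 member whose groups overlapped (exact permutation p = 0.200), and it lost the adjusted p in 4 of the 6 fits without 1 library.

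**Figure D4:**
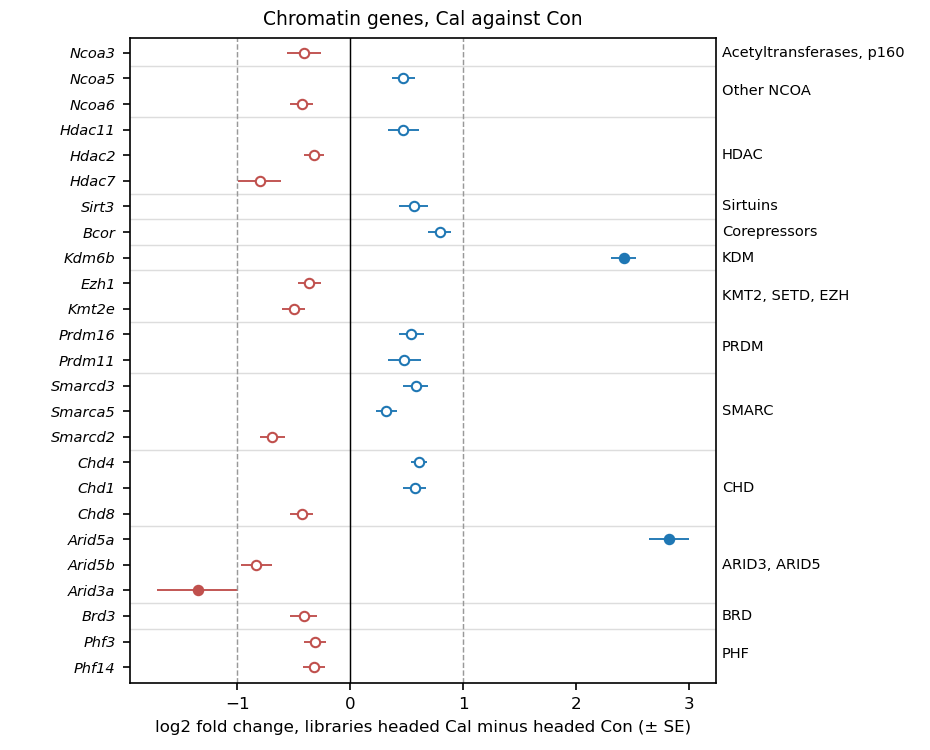
Log2 fold change (Cal minus sham, headed Con, horizontal axis) of 25 members listed for that comparison, grouped by role, with bars of 1 SE; filled points were called. Arid5a at 2.82 and Kdm6b at 2.42 stood to the right of the dashed line at 1, Arid3a at -1.35 to the left of that at -1, and the others lay between.

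Marker levels differed here as well. Neutrophil markers had 3 of 8 listed, all higher in Cal (194 to 579.9 summed normalized counts against 59.6 to 88.1), and macrophage markers 2 of 10, Cd14 higher and Mrc1 lower (2001 to 2755 against 1094 to 1210). Endothelial markers had 5 of 9 listed, all lower in Cal (12146 to 14064 against 19512 to 22159), as were the 4 of 7 fibroblast markers (9550 to 12371 against 14389 to 16008). Myh6, the cardiac myosin heavy chain that marks the labelled tissue, was at 335145 ± 1036 in Cal and 275029 ± 33746 in sham, and Ryr2 was also higher (summed, 360759 to 362832 against 267192 to 338084). Pcna was the 1 of 10 markers of dividing cells listed, higher in Cal (822 to 837 against 545 to 646), and of the lymphocyte markers none was listed. Their part in the result was not tested.

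For the 8 members listed in both tables, sham values were brought to the scale of the Cal and Model table with the factor 0.894 that linked the shared Cal libraries (0.892 to 0.897), and the levels were set side by side with no test. Kdm6b was lowest in sham and highest in Cal, at 493 ± 27.1 in sham, 1174 ± 346 in Model and 2651 ± 354 in Cal, with all groups apart. Hdac7 was highest in sham, at 735 ± 63.8, lowest in Model, at 229 ± 41.2, and between them in Cal, at 432 ± 124, again with no overlap. Model was also the lowest group for Prdm16, at 113 ± 5.74 against 265 ± 20.2 in sham and 386 ± 7.77 in Cal.

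Chd4 was at 2168 ± 26.4 in Model, 2331 ± 77.2 in sham and 3554 ± 217 in Cal, and Arid5b at 303 ± 29.9 in Cal, 541 ± 78.1 in sham and 746 ± 61.3 in Model, each with neighbouring groups apart. Hdac11 was at 128 ± 36.3 in Model, 174 ± 26.5 in sham and 239.9 ± 3.64 in Cal, where Model and sham overlapped. Chd8 stood at 545 in both sham and Model (SD 21.0 and 20.1) and at 404 ± 30.1 in Cal, and Ncoa6 at 609.9 ± 42.1 in sham, 681 ± 118 in Model and 452 ± 10.8 in Cal. In these genes sham and Model overlapped. Being listed in both tables required a difference of Cal from each of the other groups, so Cal standing apart is set by how these 8 were chosen. Chd8 and Ncoa6 were among the members whose difference from Model did not pass under the other scalings. The difference of Cal from sham was lost for Prdm16 under median-ratio scaling, for Chd4 under quantile normalization and for Hdac11 under both. How sham stood to Model also depended on scaling. Under quantile normalization the log2 fold change of Arid5b was -1.14 against sham and -1.08 against Model, in place of -0.83 and -1.30. For Chd8 these were -0.76 and -0.19, and for Ncoa6 -0.75 and -0.26. Sham then lay above Model in these genes. Kdm6b kept its order with a smaller gap under both scalings (2.13 and 1.51 under median-ratio scaling, in place of 2.42 and 1.21).

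**Figure D5:**
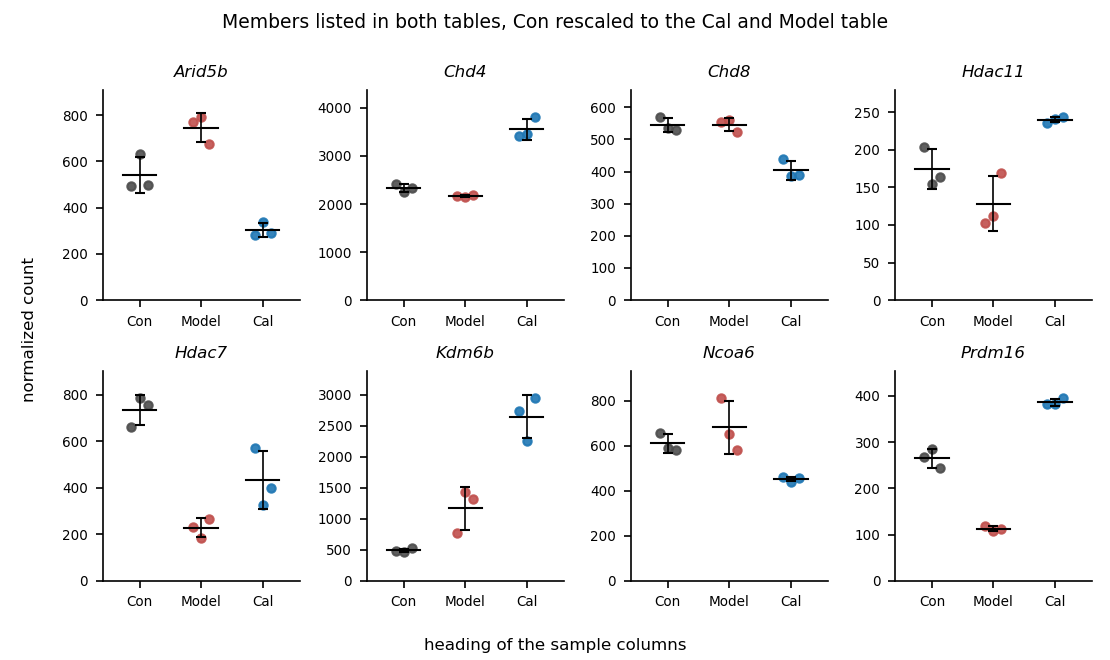
Normalized count (vertical axis) of the 8 members listed in both tables in each sham (Con, rescaled by 0.894), Model and Cal library, with the mean and SD of each group. Kdm6b was lowest in sham and highest in Cal, Hdac7, Prdm16, Chd4 and Hdac11 were lowest in Model, and Arid5b, Chd8 and Ncoa6 were lowest in Cal.

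Other chromatin genes, taken from lists outside the symbol rule, were mostly not listed. Of 43 Polycomb and heterochromatin genes, 8 were listed for Cal and Model, 4 higher and 4 lower in Cal, with 3 and 1 called. Of all listed genes 46.0% were higher and 53.7% lower at the adjusted p alone, with 28.4% and 31.6% called. Mbd1, which binds methylated CpG, had 1011, 1146 and 986 in Cal and 9217, 6344 and 3877 in Model (log2 fold change -2.54, adjusted p = 4.14e-04). Pcgf2, a subunit of PRC1, had 32.3, 39.4 and 34.2 against 4.32, 11.0 and 12.5 (log2 fold change 1.93, adjusted p = 0.00376). Of 27 other lysine and arginine methyltransferases 9 were listed, 4 higher and 5 lower, with Kmt5c at 1.39 and Nsd3 at -1.10 among the 2 called in each direction. Of 41 other acetylation and corepressor subunits 7 were listed, 4 higher and 3 lower, with Rcor2 at 2.77 and Tbl1xr1 at -1.84 among 2 called each way. Of 36 other remodelers and demethylases 7 were listed, 2 higher and 5 lower, with Bcl7a at 1.09 called higher and Jmjd1c, at -1.69, among 3 called lower.

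In the comparison with sham, these lists had 7 of 43, 2 of 27, 3 of 41 and 5 of 36 genes listed, of which 3, 2, 2 and 4 were higher in Cal. Of all listed genes 60.6% were higher in Cal at the adjusted p alone, with 18.0% called higher and 10.9% called lower. The called genes were the Polycomb subunit Cbx2 at -1.35, the p300 cofactor Cited2 at 1.00 and Baz1a, a partner of Smarca5, at 1.36. Across both tables the members were long genes, with a median length of 8480 bases in the Cal and Model table against 4378 for all listed genes, and of 7957 against 4213 in the other. Their median level per kilobase was 54.1 normalized counts against 59.6, and 79.9 against 103.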

How the data were processed

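The authors sequenced poly-A RNA and counted reads per gene. The sources differ on the reference: the study's methods speak of rat sequences and name no aligner or build, the submitters' processing notes name Bowtie 0.12.2, mm8 and mm9 (mouse builds) without their role, and gene identifiers are those of mouse Ensembl. Which reference the rat reads were counted on was not settled here, and it bears on every gene's value. Deposited sample values are a signal, the gene's count over a size factor (0.820 to 1.17 and 0.950 to 1.07), set by the authors separately in each table. Whole reads were recovered for 100.0% of values (tolerance 0.02 reads). The authors also deposited group means, used to check headings, and their own log2 fold changes and p-values, which were not used beyond reading the largest adjusted p-value. The deposited gene length served for levels per kilobase. Total depth is unknown, because unlisted genes were not analysed here. No sample column was left unused, and replicate libraries gave a chi-square per degree of freedom of 10.7 to 78.3, so none was deposited in duplicate.

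Each table was fitted separately with limma 3.58.1 in R 4.3.3 (trended prior variance) on log2(normalized count + 1) over all listed genes, with Benjamini-Hochberg adjustment. Tested on simulated data with 200 genes shifted by 2 log2 units, the fit recovered 98% among 4288 genes with 10 false calls, and 100% among 2458 with 9. There most genes were unchanged, whereas the real lists hold only genes selected for a difference. These rates therefore do not carry over to the listed genes. Alternatives were other pseudocounts (0.1 and 10), a filter on mean level (10), other scalings, a replicate block, no fold limit, leaving out each library, and edgeR 4.0.16 and DESeq2 1.42.0 on recovered reads. Exact permutation tests used scipy 1.17.1 in Python 3.11.15, and figures matplotlib 3.10.9. Named genes were all called members, members in both tables and the extremes of each role class. Members, lists and tests were chosen with earlier results of these data known. Some genes counted among the members are not reported here by name. Promoters came from RefSeq GRCr8.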

Additional observations from a re-analysis of the deposited data

How the results depend on the processing

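With no fold limit the members called were 21 higher and 21 lower in Cal than in Model, and 13 and 13 against sham, in place of 7, 9, 2 and 1. Median-ratio scaling gave 16 members higher in Cal than in Model and 3 lower than in sham, and quantile normalization 11 and 3, while the counts of 9 lower than in Model and 2 higher than in sham stayed at 9 and 2. Over all 4288 genes listed for Cal and Model, median-ratio scaling gave 1646 higher and 1047 lower and quantile normalization 1393 and 1175, in place of 1219 and 1356, so that the lower share of called members against Model (38.1% against 60.1%) was 59.5% against 62.8% and 47.6% against 59.9%. Over the 2458 genes listed against sham they gave 342 and 447, and 348 and 387, in place of 443 and 269. Under quantile normalization Smarca5 reversed against sham, to -0.09 (adjusted p = 0.447). Quantile normalization moved the median of all genes listed against sham from 0.37 to -0.04. Whether more than this general shift lay behind the reversal was not tested. Leaving out each library in turn gave 6 to 10 members higher and 9 to 9 lower than in Model, and 2 to 2 higher and 1 to 2 lower than in sham, the 2 without Cal 1. Over all listed genes these fits gave 1121 to 1275 higher and 1223 to 1429 lower than in Model. Against sham they gave 421 to 470 higher and 251 to 305 lower. Pseudocounts of 0.1 and 10, the filter on means, edgeR and DESeq2 gave 7, 9, 2 and 1 members. Over all listed genes these settings gave 1007 to 1226 higher and 1175 to 1389 lower than in Model. Against sham they gave 402 to 445 higher and 200 to 272 lower, with the lowest counts from the pseudocount of 10. That pseudocount moved Dnmt3c from -5.01 to -3.57 and Phf11a from -3.74 to -3.06.

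Deviations of same-numbered libraries correlated at 0.132, -0.143 and -0.077 for Cal and Model, and at -0.076, -0.142 and -0.129 for Cal and sham. Differently numbered libraries lay between -0.232 and 0.281. With 3 libraries per group these values cannot show whether the replicate numbers pair libraries. A fit with the replicate number as a block gave 7, 9, 2 and 1 members, beside 1217, 1357, 443 and 270 of all listed genes.

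Values of genes that the authors did not list were not used, so a member absent from a table is not shown to be unchanged. Scaling factors computed on listed genes rest on genes selected for a difference. Small numbers of reads limit Dnmt3c and Phf11a in the Cal libraries, where the lowest counts were 2 and 4 reads.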
